A study of Mus musculus with 5 samples.

Results

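The genes described here are 40 mouse genes that drive and carry out mitosis, taken from a fixed list of symbols and matched to the Ensembl identifiers of the deposited count tables. All 40 were found among the 55573 genes of those tables, and all 40 had enough counts to be compared. RNA came from the right hemisphere of C57BL/6 female mice that carried a GL261 tumor, a mouse glioma line that had been transduced with luciferase and mKate2 and inoculated into the right caudate nucleus-putamen at 7 to 8 weeks of age. The vehicle group (3 libraries, 1 mouse each) was given a dilution buffer, and the UMBO group (2 libraries) was given ultrasound-mediated blood-brain barrier opening with intravenous microbubbles. Treatment was on days 21 and 24, and tissue was taken 24 h after the last session. Whether vehicle mice were given microbubbles is not given in the sources used here. Mice had been selected for tumors of comparable bioluminescence, and tumor size by library was not used here.

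A dividing cell enters mitosis when cyclin A2 and the B-type cyclins activate the kinase Cdk1. Chromosomes then condense, kinetochores assemble on centromeres that carry the histone variant CENP-A, and microtubules pull on them through the Ndc80 complex. The spindle assembly checkpoint holds back the anaphase promoting complex until every kinetochore is attached, after which securin and cyclin B are destroyed, chromatids separate and the cell is cleaved. Most of these genes are transcribed only in late S, G2 and M phase, so that in brain, where neurons and most glia do not divide, a high level is a known sign of proliferating cells such as those of a tumor. A pair of elements near the transcription start is known for this timing. The CHR (cell cycle genes homology region, most often TTTGAA and in some genes TTTAAA) is read by the DREAM and MuvB complexes, which repress these genes in resting cells and activate them in dividing cells, and the CCAAT box is bound by NF-Y.

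The promoters are shown first because most members with a promoter sequence at hand hold both elements. These sequences do not depend on the counts. RefSeq promoter windows (build GRCm38.p6, 250 bases before to 50 bases after the start) were matched by symbol for 33 of the 40 members, in 36 windows. Both strands were searched for both spellings of the CHR, the second of which is its own reverse complement, and for CCAAT boxes. The TTTGAA spelling was present in 28 of the 36 windows (77.8%), against 17.9% of all 32851 windows. A CCAAT box was present in 77.8% of the members' windows and in 37.4% of all windows, and a CHR of either spelling together with a CCAAT box in 75.0% and 10.7%. A pair or more of CCAAT boxes was present in 20 of the 36 windows (55.6%), against 11.7% of all windows. Of the 25 member genes with TTTGAA, 23 (92.0%) had a copy that began within 50 bases of the start, as did 27.6% of all windows with TTTGAA. In the 23 member genes with a CCAAT box upstream of the CHR nearest the start, the median distance from the first base of one to the first base of the other was 32 bases, and in 14 genes it was between 25 and 40 bases. A match is a description of the letters in a window and does not show that a factor was bound.

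**Figure D1:**
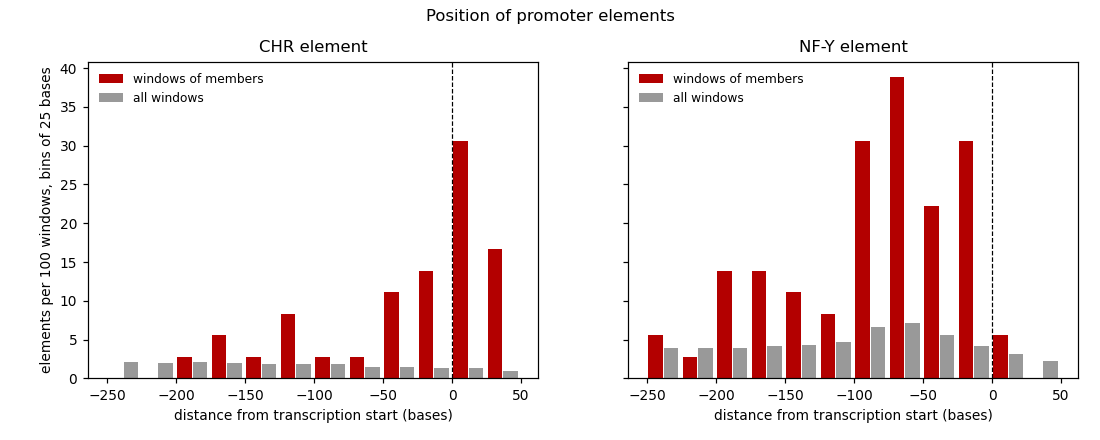
Number of elements per 100 promoter windows in bins of 25 bases, by distance from the transcription start (dashed line), for the 36 windows of the members (red) and all 32851 windows (grey); the CHR panel counts TTTGAA and the NF-Y panel counts CCAAT, on both strands. The members' CHR elements sit mostly within 50 bases of the start, and their NF-Y elements mostly between 100 bases upstream and the start.

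Windows are printed for Kif11, Cenpf and Mki67, the 3 members with the smallest p in the comparison of the treatment groups, and for Anln, the member whose level differed least between the groups. They lie at chr19:37376132-37376431 (plus strand), chr1:189688037-189688336, chr7:135716330-135716629 and chr9:22389157-22389456 (minus strand for the last 3). Each is written 5′ to 3′ on the strand of the gene, with the CHR elements and CCAAT boxes of either orientation in capitals.
Kif11: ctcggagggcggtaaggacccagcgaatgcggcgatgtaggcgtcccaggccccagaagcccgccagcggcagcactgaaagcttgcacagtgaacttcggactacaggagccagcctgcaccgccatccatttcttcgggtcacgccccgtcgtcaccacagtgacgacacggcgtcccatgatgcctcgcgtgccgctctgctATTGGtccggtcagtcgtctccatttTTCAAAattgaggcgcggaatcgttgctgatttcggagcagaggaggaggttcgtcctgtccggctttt
Cenpf: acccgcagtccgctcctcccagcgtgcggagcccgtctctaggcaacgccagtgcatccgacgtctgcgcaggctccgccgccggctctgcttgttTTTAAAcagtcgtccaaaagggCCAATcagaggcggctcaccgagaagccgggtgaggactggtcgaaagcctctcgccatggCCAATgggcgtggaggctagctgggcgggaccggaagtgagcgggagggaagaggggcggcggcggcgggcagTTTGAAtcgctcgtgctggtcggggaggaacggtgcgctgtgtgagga
Mki67: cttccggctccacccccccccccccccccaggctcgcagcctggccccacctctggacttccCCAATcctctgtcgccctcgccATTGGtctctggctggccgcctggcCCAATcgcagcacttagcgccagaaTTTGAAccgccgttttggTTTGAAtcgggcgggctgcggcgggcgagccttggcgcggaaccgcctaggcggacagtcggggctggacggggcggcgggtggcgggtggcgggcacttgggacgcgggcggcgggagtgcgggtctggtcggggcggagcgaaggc
Anln: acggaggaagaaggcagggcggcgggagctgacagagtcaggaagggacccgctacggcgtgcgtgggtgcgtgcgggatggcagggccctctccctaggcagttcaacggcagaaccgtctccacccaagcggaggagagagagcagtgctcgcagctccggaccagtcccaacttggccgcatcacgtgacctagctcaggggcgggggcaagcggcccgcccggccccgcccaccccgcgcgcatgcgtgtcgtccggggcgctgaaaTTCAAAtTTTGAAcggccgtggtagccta
In Kif11, the CHR began at base -19 from the start and the CCAAT box at -45. In Cenpf, a CHR began at 2, another of the rarer spelling at -154, and CCAAT boxes at -132 and -71. Mki67 held 2 CHR elements, at -116 and -98, downstream of 3 CCAAT boxes at -188, -166 and -141. Anln held 2 CHR elements in opposite orientation just after the start, at 21 and 28, and no CCAAT box within the window. The windows of 4 members held neither element, those of Nuf2, Nusap1, Mad2l1 and Pttg1. The median log2 fold change between the treatment groups was 2.04 for the 24 member genes with both elements and 2.03 for the 9 without both, with ranges that overlapped. Among other mitosis genes, TTTGAA was present in 14 of 21 genes for further spindle proteins (66.7%), in 7 of 14 condensin and cohesin genes (50%), in 10 of 30 other kinetochore and centromere subunits (33.3%), in 5 of 17 regulators of G2/M (29.4%), in 3 of 16 subunits and regulators of the anaphase promoting complex (18.8%) and in 4 of 24 replication genes (16.7%). Counted by gene, the share was 75.8% of the members and 20.2% of all genes.

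Levels are given as CPM, counts scaled to library size with TMM factors. Total counts were between 59736771 and 86164159 per library, and the lowest count of any member in any library was 52, so counting error was small beside the spread between mice. UMBO replicate 2 stood apart from the other 4 libraries across all genes, at 133.7 on a first principal component that held 78.7% of the variance, with the others between -68.4 and 17.0. The counts of members are therefore also given without it. Neuronal markers (10 of 10 detected) had a summed level of 6107 to 9059 CPM with vehicle, against 6413 and 3339 CPM in UMBO replicates 1 and 2.

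All 40 members had a higher fitted level with UMBO than with vehicle, where 50.9% of all 23592 genes tested did. The median log2 fold change was 1.99, against 0.01 for all genes. In edgeR's quasi-likelihood fit, 35 of the 40 members reached an unadjusted p under 0.05, all higher, against a background of 5.3% of all genes tested. None of the 40 passed after Benjamini-Hochberg adjustment over all genes in edgeR, where the lowest adjusted p of a member was 0.497 and where 0% of genes passed. DESeq2's Wald test gave no member an adjusted p under 0.05 either (lowest 0.072), while 42 genes in all passed it (0.178%), and 35 members had an unadjusted p under 0.05 there (background 8.11%). With the replicate number as a block, 35 members had an adjusted p under 0.05 in edgeR (background 6.05%), but nothing in the labels ties mice of the same number together. The groups did not overlap in 23 of the 40 members, with both UMBO libraries higher, against 11.5% of all genes.

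**Figure D2:**
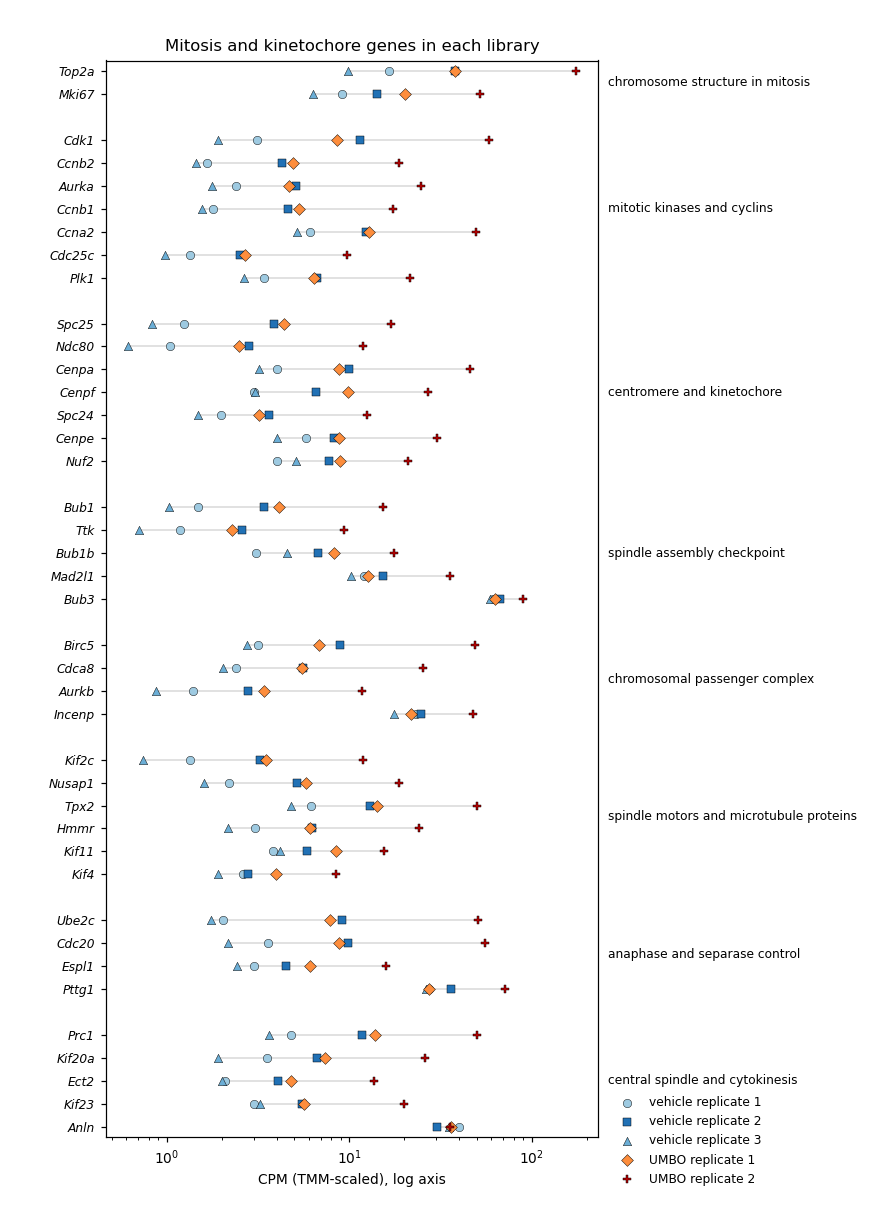
Level of each of the 40 members in each of the 5 libraries (CPM after TMM scaling, log axis), grouped by role, with 1 symbol per library and a grey line over the range. UMBO replicate 2 (dark red) is highest in 39 of 40 genes, UMBO replicate 1 (orange) lies beside vehicle replicate 2 (dark blue), and the other vehicle libraries are lowest in most genes.

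UMBO replicate 2 was the highest of the 5 libraries in 39 of the 40 members (40.4% of all genes), vehicle replicate 3 the lowest in 34, and vehicle replicate 2 the highest vehicle library in 39. UMBO replicate 1 lay above vehicle replicates 1 and 3 in 38 members. For this order and that of the vehicle libraries, the share of all genes was not counted. Against vehicle replicate 2, UMBO replicate 1 was higher in 24 and lower in 16, where 49.9% of all genes were higher. The median ratio between these libraries was 1.06 (range 0.751 to 1.49). By contrast, the median ratio of UMBO replicate 2 to UMBO replicate 1 was 3.50. The median log2 level of the members, taken over the vehicle mean, ran over -0.38, 0.70 and -0.73 among the 3 vehicle mice in replicate order, whereas the UMBO mice stood at 0.73 and 2.65. Vehicle replicate 2 stood a median of 2.71-fold above vehicle replicate 3, so the median of the members in UMBO replicate 1 was close to that in the highest vehicle mouse, and the median in UMBO replicate 2 was above that of every vehicle mouse. Anln was an exception to this order, highest in vehicle replicate 1 and lowest in vehicle replicate 2. Without UMBO replicate 2 the median log2 fold change was 0.73, with 38 members higher, and 3 members kept an unadjusted p under 0.05 (background 1.15%). Without UMBO replicate 1 the median was 2.63, and 39 members had an unadjusted p under 0.05 (background 21.4%). Of these, 38 also had an adjusted p under 0.05 in edgeR, beside 10.1% of all genes, in a fit that takes the spread of the lone UMBO library from the vehicle libraries. Without vehicle replicate 1 and without vehicle replicate 3, in turn, 5 and 4 members had an unadjusted p under 0.05 (background 0.838% and 0.945%), and without vehicle replicate 2 there were 35 (9.36%).

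**Figure D3:**
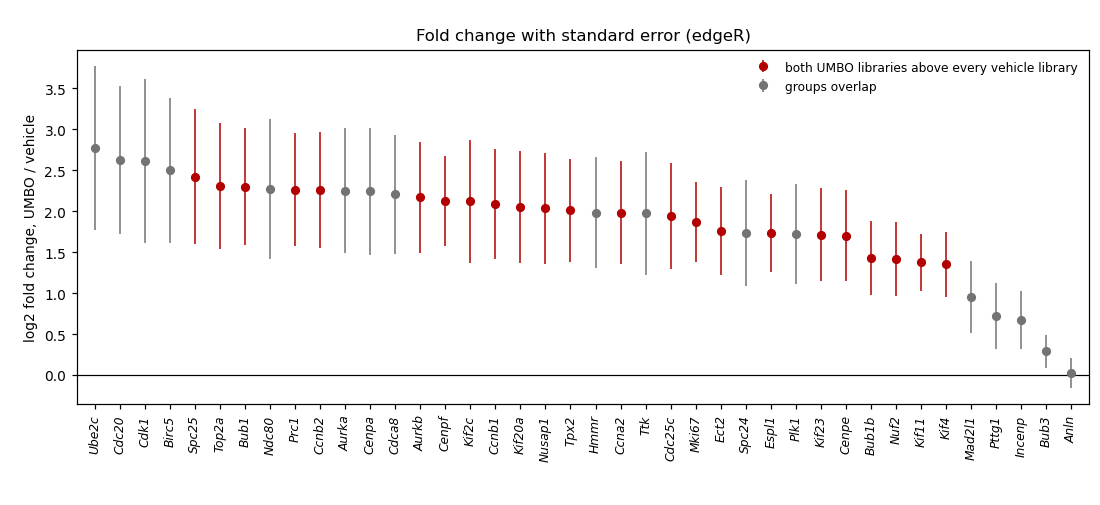
Log2 fold change of UMBO over vehicle with its standard error from edgeR for the 40 members, ordered by size; red points mark the 23 members in which the groups did not overlap and grey points the 17 in which the groups overlapped. The fold changes run from 0.03 for Anln to 2.77 for Ube2c, and the 5 smallest are those of Mad2l1, Pttg1, Incenp, Bub3 and Anln.

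Markers of some other cells were also higher with UMBO, while those of others were not. Of all genes tested, 50.9% had a higher fitted level with UMBO. Of 12 monocyte and macrophage markers, 12 were higher with UMBO (3 at an unadjusted p under 0.05, against 5.3% of all genes), with a summed level of 48.7 to 152 CPM with vehicle, against 125 and 516 CPM in UMBO replicates 1 and 2. Of 10 neuronal markers, 9 were lower, none at an unadjusted p under 0.05. Of 10 microglia markers, 8 were higher, 6 of them at an unadjusted p under 0.05 (background 5.3%), with sums of 362 to 518 CPM with vehicle, against 699 and 837 CPM in UMBO replicates 1 and 2. T and NK cell markers summed to 19.6 to 35.3 CPM with vehicle, against 14.7 and 55.0 CPM in UMBO replicates 1 and 2. Among other cells of the brain that can divide, oligodendrocyte progenitors had markers that summed to 404 to 517 CPM with vehicle. With UMBO the sums were 631 and 821 CPM. Of these 8 markers, 6 were higher, 3 of them at an unadjusted p under 0.05 (background 5.3%). Endothelial markers summed to 168 to 231 CPM with vehicle and to 282 and 275 CPM with UMBO. Of these 8 markers, 7 were higher, 4 of them at that threshold (background 5.3%). Markers of adult neuroblasts and progenitors summed to 204 to 289 CPM with vehicle and to 195 and 132 CPM with UMBO. Astrocyte markers summed to 3706 to 5095 CPM with vehicle, against 4766 and 2363 CPM in UMBO replicates 1 and 2. Of 6 choroid plexus markers, 6 were lower, none at an unadjusted p under 0.05. Their sums were 813 to 857 CPM with vehicle, against 862 and 497 CPM in UMBO replicates 1 and 2. No marker of these lists was at 0 in every library. The part of these cells in the difference was not tested. In bulk RNA of a whole hemisphere, more dividing cells and more mitotic RNA per dividing cell cannot be told apart.

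A pair of members are classical markers of proliferation. Mki67 (ENSMUSG00000031004, chr7:135689784-135716361) encodes Ki-67, which coats mitotic chromosomes and keeps them apart. It was at 9.15, 14.2 and 6.37 CPM in vehicle replicates 1 to 3 and at 20.2 and 51.8 CPM in UMBO replicates 1 and 2. Both UMBO libraries lay above the highest vehicle library, with a log2 fold change of 1.87 (standard error 0.487, unadjusted p = 0.00866). Without UMBO replicate 2, the log2 fold change was 1.04 (standard error 0.397). Top2a (chr11:98992943-99024189), the topoisomerase that untangles sister chromatids, was at 16.5, 38.1 and 9.91 CPM with vehicle and at 38.2 and 175 CPM with UMBO. It had the highest CPM of any member in UMBO replicate 2, but UMBO replicate 1 exceeded vehicle replicate 2 by a ratio of only 1.00. An exon of the small gene Gm23451 lies within Top2a on the same strand.

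All 7 kinases, cyclins and phosphatases of mitotic entry had an unadjusted p under 0.05 (background 5.3% of all genes higher), with log2 fold changes between 1.72 and 2.61. Ccnb2 (chr9:70407692-70421547), a B-type cyclin, was at 1.67, 4.29 and 1.44 CPM with vehicle and at 4.93 and 18.6 CPM with UMBO (log2 fold change 2.26, standard error 0.706). Ccna2 (chr3:36564865-36572150), the cyclin of S phase and mitotic entry, was at 6.11, 12.4 and 5.21 CPM with vehicle and at 12.8 and 49.3 CPM with UMBO (log2 fold change 1.98, standard error 0.628). In both genes UMBO replicate 1 lay just above vehicle replicate 2 and well above the other vehicle libraries. Plk1, a kinase of centrosome maturation and mitotic exit, differed least in this group, at 3.40, 6.68 and 2.65 CPM with vehicle and 6.39 and 21.5 CPM with UMBO. Here UMBO replicate 1 was below vehicle replicate 2, so the groups overlapped. Cdk1 itself had a log2 fold change of 2.61 and the widest standard error of the members (1.00). Its level in UMBO replicate 2 was 30.5 times that in vehicle replicate 3, the widest span of all members. Ccnb1, Aurka, the kinase of spindle poles, and Cdc25c, the phosphatase that activates Cdk1, had log2 fold changes of 2.09, 2.25 and 1.94. Per kilobase of exon, Ccnb2 and Ccna2 stood at 1.61 and 1.93 CPM per kb with vehicle and at 7.69 and 7.61 with UMBO, and Ccnb1 at 0.634 and 2.7.

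The 7 genes of centromeres and kinetochores were also all higher at an unadjusted p under 0.05 (background 5.3% of all genes). Cenpf (ENSMUSG00000026605, chr1:189640606-189688086), a large protein of the outer kinetochore that is made in G2, was at 3.02, 6.57 and 3.06 CPM with vehicle and at 9.82 and 26.9 CPM with UMBO. Both UMBO libraries exceeded every vehicle library, with a log2 fold change of 2.12 (standard error 0.545, unadjusted p = 0.00804), and the log2 fold change was 1.22 without UMBO replicate 2. Nuf2 (chr1:169497934-169531464), of the Ndc80 complex, was at 4.0, 7.73 and 5.09 CPM with vehicle and 8.87 and 21.1 CPM with UMBO (log2 fold change 1.42, standard error 0.451), again without overlap. The other 3 subunits of that complex had larger differences, with log2 fold changes of 2.27 for Ndc80, 1.73 for Spc24 and 2.42 for Spc25. Of the summed CPM per kilobase of the 4 subunits, Nuf2 made up 32.2%, 28.4% and 46.3% in vehicle replicates 1 to 3, and 31.7% and 21.7% with UMBO, so that UMBO replicate 1 lay within the vehicle range. Spc25 made up 19.9%, 28.4% and 14.9% with vehicle, and 31.4% and 34.4% with UMBO. Cenpa, the centromeric histone H3 variant, had a log2 fold change of 2.24 and Cenpe, a kinetochore motor, one of 1.70.

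In the spindle assembly checkpoint the members split. Bub1 (chr2:127801122-127831865), a kinetochore kinase, was at 1.48, 3.41 and 1.03 CPM with vehicle and at 4.12 and 15.3 CPM with UMBO (log2 fold change 2.30, standard error 0.713). Bub1b, which encodes BubR1 of the mitotic checkpoint complex, was at 3.08, 6.76 and 4.58 CPM with vehicle and at 8.28 and 17.5 CPM with UMBO (log2 fold change 1.43, standard error 0.451). Both genes separated the groups. Ttk, the kinase that starts checkpoint signalling, had a log2 fold change of 1.97, with overlap. Mad2l1, which binds and inhibits Cdc20, did not reach an unadjusted p under 0.05, at a log2 fold change of 0.95 (standard error 0.444). Bub3 (chr7:131560222-131571895), a partner of both Bub kinases that is also known in interphase cells, was at 61.2, 66.9 and 59.0 CPM with vehicle and at 63.0 and 89.3 CPM with UMBO. Only UMBO replicate 2 lay outside the vehicle range, and the log2 fold change was 0.29 (standard error 0.204, unadjusted p = 0.207).

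The chromosomal passenger complex had 3 of 4 genes higher at an unadjusted p under 0.05 (background 5.3% of all genes). Aurkb (chr11:69045647-69051664), its kinase, was at 1.39, 2.79 and 0.874 CPM with vehicle and at 3.42 and 11.7 CPM with UMBO (log2 fold change 2.17, standard error 0.678). Cdca8, which encodes borealin, was at 2.41, 5.58 and 2.04 CPM with vehicle and at 5.49 and 25.3 CPM with UMBO (log2 fold change 2.20, standard error 0.724), with UMBO replicate 1 just below vehicle replicate 2. Birc5, which encodes survivin, had a log2 fold change of 2.50. Incenp (chr19:9872296-9899551), the scaffold, was at 23.2, 24.9 and 17.6 CPM with vehicle and at 21.8 and 47.8 CPM with UMBO. UMBO replicate 1 lay within the vehicle range, and the log2 fold change was 0.67 (standard error 0.355, unadjusted p = 0.109). It was the 1 member whose level in UMBO replicate 1 was below the vehicle median. Incenp made up 74.1%, 55.3% and 73.0% of the summed CPM per kilobase of the complex in vehicle replicates 1 to 3, and 54.3% and 32.1% with UMBO. Birc5 made up 12.9%, 25.3% and 14.5% with vehicle, and 21.7% and 42.1% with UMBO. In both genes the shares in vehicle replicate 2 and UMBO replicate 1 were close.

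All 6 spindle motors and microtubule proteins were higher at an unadjusted p under 0.05 (background 5.3% of all genes). The groups did not overlap in 5 of them, with both UMBO libraries higher (background 11.5%). Kif11 (ENSMUSG00000012443, chr19:37376403-37421859), the kinesin that pushes spindle poles apart, was at 3.82, 5.90 and 4.19 CPM with vehicle and at 8.49 and 15.5 CPM with UMBO. Its vehicle libraries lay close together and both UMBO libraries lay clear of them, which gave the smallest p of all members (log2 fold change 1.37, standard error 0.350, unadjusted p = 0.00784). The log2 fold change was 0.87 without UMBO replicate 2. Kif4, a chromosome-bound kinesin, was at 2.61, 2.80 and 1.90 CPM with vehicle and at 3.99 and 8.44 CPM with UMBO (log2 fold change 1.35, standard error 0.399). Vehicle replicate 2, high in most members, was close to vehicle replicate 1 here. Tpx2, which activates Aurora A on the spindle, had a log2 fold change of 2.01, Nusap1 one of 2.03, Kif2c, a microtubule depolymerase, one of 2.12, and Hmmr, a spindle pole protein, one of 1.98, with overlap in Hmmr alone. Across the 5 fits that left out 1 library, the log2 fold change was between 0.87 and 1.72 for Kif11. It was between 1.22 and 2.65 for Cenpf and between 1.04 and 2.36 for Mki67. These fits share most of their libraries.

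Among the genes of anaphase and separase control, Ube2c and Cdc20 had the largest log2 fold changes of the members. Espl1 and Pttg1 lay below the members' median of 1.99. Espl1 (chr15:102296266-102324357), which encodes separase, the protease that cuts cohesin, was at 3.01, 4.49 and 2.43 CPM with vehicle and at 6.13 and 15.9 CPM with UMBO (log2 fold change 1.73, standard error 0.475, unadjusted p = 0.0109). Cdc20 (chr4:118432901-118437352), the activator of the anaphase promoting complex, was at 3.61, 9.84 and 2.17 CPM with vehicle and at 8.75 and 55.1 CPM with UMBO (log2 fold change 2.62, standard error 0.904). Ube2c, the ubiquitin-conjugating enzyme of that complex, had the highest log2 fold change of the members, 2.77 (standard error 1.00). In both Cdc20 and Ube2c, UMBO replicate 1 was below vehicle replicate 2. Pttg1 (chr11:43420250-43426251), which encodes securin, the inhibitor of separase, was at 27.3, 36.3 and 26.3 CPM with vehicle and at 27.5 and 71.5 CPM with UMBO (log2 fold change 0.72, standard error 0.404, unadjusted p = 0.124). Its log2 fold change was -0.13 without UMBO replicate 2.

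Of the 5 genes of the central spindle and cytokinesis, 4 were higher at an unadjusted p under 0.05 (background 5.3% of all genes). The same 4 separated the groups, with both UMBO libraries higher (background 11.5%). Prc1 (chr7:80294450-80316259), which bundles the microtubules of the central spindle, was at 4.77, 11.7 and 3.63 CPM with vehicle and at 13.9 and 50.3 CPM with UMBO (log2 fold change 2.26, standard error 0.691). Ect2, the exchange factor that switches on RhoA at the cleavage site, was at 2.09, 4.08 and 2.01 CPM with vehicle and at 4.80 and 13.6 CPM with UMBO (log2 fold change 1.76, standard error 0.542). Kif23 and Kif20a, kinesins of the midzone, had log2 fold changes of 1.71 and 2.05. Anln (chr9:22332012-22389188) encodes anillin, the scaffold of the contractile ring, which in brain is also known from myelinating oligodendrocytes. It was at 40.2, 30.3 and 35.1 CPM with vehicle and at 36.1 and 35.5 CPM with UMBO. Both UMBO libraries lay inside the vehicle range, with a log2 fold change of 0.03 (standard error 0.181, unadjusted p = 0.893). Markers of mature oligodendrocytes summed to 5956 to 6113 CPM with vehicle and to 6361 and 5515 CPM with UMBO, and whether Anln RNA came from those cells was not tested.

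The 5 members without an unadjusted p under 0.05 were among those with a higher level per kilobase of exon in the vehicle group. Their vehicle means were 1.5 (Mad2l1), 3.88 (Anln), 5.06 (Incenp), 8.90 (Bub3) and 15.0 (Pttg1) CPM per kb, whereas the other 35 members ranged from 0.231 to 2.79 with a median of 0.739. The level with UMBO minus that with vehicle was 9.75 CPM per kb for Pttg1, beside 9.43 for Top2a and 9.66 for Ube2c. The difference of Pttg1 came from UMBO replicate 2, since UMBO replicate 1 (27.5 CPM) lay below the vehicle mean, whereas Top2a and Ube2c in UMBO replicate 1 were 1.78 and 1.83 times their vehicle means. Incenp in UMBO replicate 1 was also below its vehicle mean. The level with UMBO minus that with vehicle was 2.98 CPM per kb for Incenp, 1.97 for Bub3, 1.40 for Mad2l1 and 0.0687 for Anln. Its median over the 40 members was 2.11. Across the 40 members, the log2 vehicle level per kilobase and the log2 fold change had a Pearson correlation of -0.49, which is a description only, because the vehicle level enters both values and all members share the same 5 libraries.

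**Figure D4:**
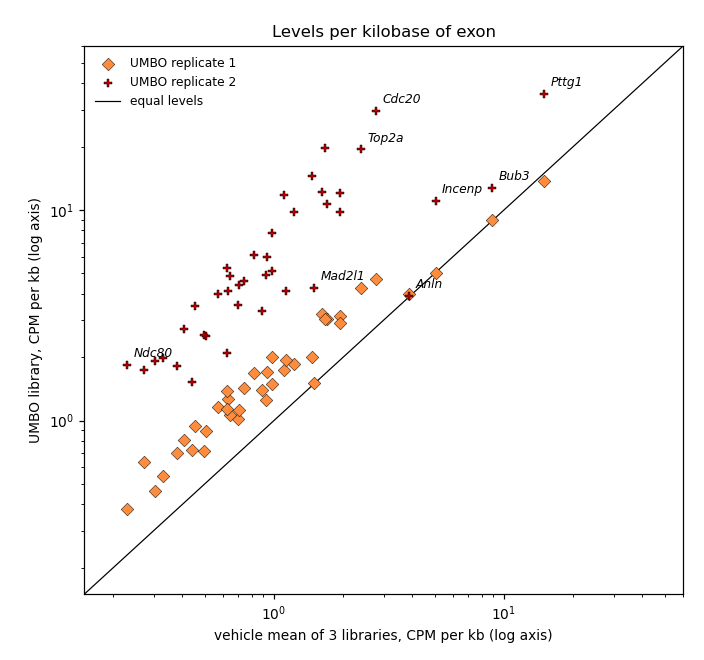
Level of each member per kilobase of exon in UMBO replicate 1 (orange diamonds) and UMBO replicate 2 (dark red crosses) against the mean of the 3 vehicle libraries (CPM per kb, log axes), with the line of equal levels. Members of low vehicle level lie well above the line in UMBO replicate 2. In UMBO replicate 1, Anln, Bub3, Incenp and Pttg1, at 3.88 to 15.0 CPM per kb with vehicle, lie on or near the line. So does Mad2l1, at a lower vehicle level. In UMBO replicate 2, Incenp, Pttg1, Mad2l1 and, by less, Bub3 lie above the line, and Anln stays on it.

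Other genes of the pathway were read from lists that hold no member. Of 22 further motors and spindle proteins, 18 were higher and 1 lower at an unadjusted p under 0.05, where 5.3% of all genes were higher and 2.06% lower, with a median log2 fold change of 1.74. Ckap2, a microtubule stabilizer, was at 2.25, 4.39 and 1.77 CPM with vehicle and 7.41 and 19.6 CPM with UMBO (log2 fold change 2.27, standard error 0.555), and Aspm, a spindle pole protein, stood at 1.66 (standard error 0.432). The 1 lower gene was Cit, the citron kinase of cytokinesis, whose gene is also read in neurons. It was at 283, 235 and 273 CPM with vehicle and at 202 and 158 CPM with UMBO, without overlap (log2 fold change -0.55, standard error 0.222, unadjusted p = 0.0482). Of 34 other kinetochore and centromere subunits, 14 were higher and none lower at that threshold (background 5.3% and 2.06%), with a median of 1.06. Relative to the vehicle mean, their median log2 level was 0.34 in vehicle replicate 2, against 0.29 and 1.56 in UMBO replicates 1 and 2. The log2 fold change of Knl1, the platform of the outer kinetochore, was 1.64 (standard error 0.445) and that of Knstrn 1.92 (standard error 0.578), while Cenpc1, of the inner kinetochore, was at -0.38 (standard error 0.259). Of 24 regulators of G2/M transcription and entry, 20 were higher, where 50.9% of all genes were. At an unadjusted p under 0.05, 11 were higher (background 5.3%), and the median was 0.95. Foxm1, the transcription factor of late cell cycle genes, was at 3.93, 6.78 and 3.35 CPM with vehicle and 9.10 and 23.1 CPM with UMBO (log2 fold change 1.78, standard error 0.486), and Gtse1 had a log2 fold change of 2.13. Rbl2, which encodes p130 of the DREAM repressor, had one of -0.38 (standard error 0.276).

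Of 17 subunits and regulators of the anaphase promoting complex, 12 were higher, where 50.9% of all genes were, and the median log2 fold change was 0.26. The 1 gene at an unadjusted p under 0.05, a share near the background of 5.3%, was Fbxo5, the inhibitor of the complex made in S and G2 phase (log2 fold change 1.75, standard error 0.614). Next came Ube2s, its ubiquitin chain-elongating enzyme, at 0.86 (standard error 0.363), whereas the core subunit Cdc27 was at -0.29 (standard error 0.254). Of 18 condensin and cohesin genes, 10 were higher, a share near the 50.9% of all genes. At an unadjusted p under 0.05, 5 were higher (background 5.3%), and the median was 0.19. Ncaph and Ncapg encode subunits of condensin I. Their log2 fold changes were 1.83 (standard error 0.558) for Ncaph and 2.06 (standard error 0.683) for Ncapg, while Pds5b, a cohesin regulator, was at -0.48 (standard error 0.297).

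Replication genes were higher alongside the members. Of 31 genes of S phase, 31 were higher, where 50.9% of all genes were. Of these, 20 had an unadjusted p under 0.05 (background 5.3%), and the median log2 fold change was 1.34. Their median log2 level over the vehicle mean was 0.40 in vehicle replicate 2, against 0.21 and 1.98 in UMBO replicates 1 and 2, so UMBO replicate 1 lay below the highest vehicle library. Rrm2, of ribonucleotide reductase, was at 3.68, 7.92 and 3.39 CPM with vehicle and at 8.97 and 34.5 CPM with UMBO (log2 fold change 2.12, standard error 0.639). Cdc6, which loads the replicative helicase, differed by 2.07 on the log2 scale (standard error 0.633), and Ccne1, the cyclin of S phase entry, one of 0.17 (standard error 0.211). The summed level per kilobase of the 40 members, divided by that of the replication genes, came to 0.765, 0.967 and 0.767 among the 3 vehicle mice in replicate order, whereas the UMBO mice stood at 1.00 and 1.22. The ratio in UMBO replicate 1 lay next to that of vehicle replicate 2. The members' sums were 58.4, 94.9 and 50.1 CPM per kb with vehicle, and 91.0 and 309 with UMBO. Of these, the 35 members with an unadjusted p under 0.05 gave 24.8, 56.3 and 19.4 with vehicle, and 57.7 and 242 with UMBO. The other 5 members thus held the larger part of the sum in vehicle replicates 1 and 3.

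**Figure D5:**
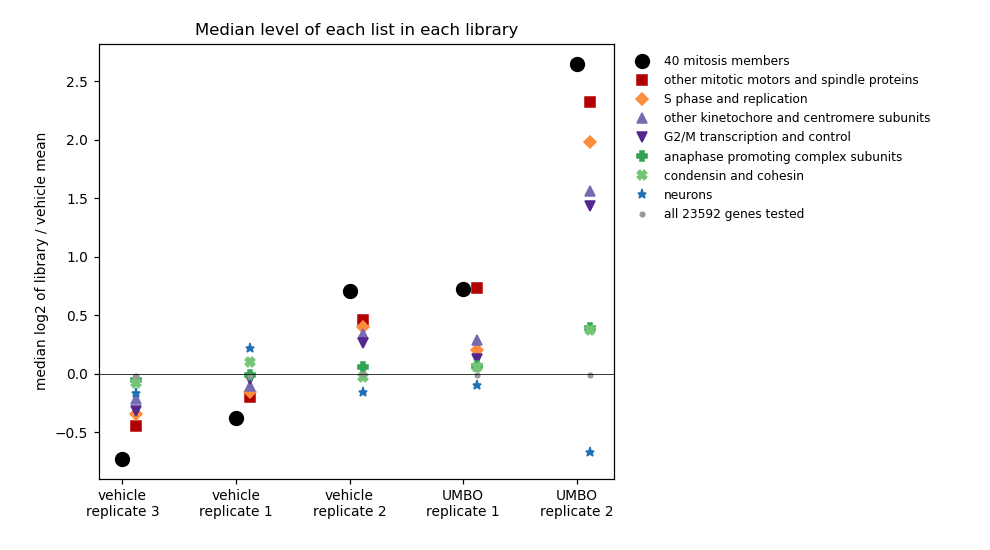
Median over the genes of each list of the log2 level in a library relative to the mean of the 3 vehicle libraries, for the 40 members (large black circles), 6 other lists of the pathway, neuronal markers and all genes tested. The members run from -0.73 in vehicle replicate 3 to 2.65 in UMBO replicate 2, while all genes stay near 0; monocyte and macrophage markers, not drawn, run farther, from -1.48 in vehicle replicate 1 to 3.02 in UMBO replicate 2.

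Exons of 10 members overlap an exon of another gene on the opposite strand, among them Kif20a with Cdc23, Prc1 with Rccd1, Kif4 with Pdzd11, Ube2c with Tnnc2, Ccna2 with Exosc9 and Nusap1 with Oip5. Whether the counting used strand is not given in the sources used here, so reads in the exon bases shared by these pairs cannot be told apart. The shared bases ran from 53 of 1868 exon bases in Cdc20 to 1271 of 4338 in Kif20a. Among the 29 members with no overlapping exon on either strand, 24 were higher at an unadjusted p under 0.05 (background 5.3% of all genes). The median log2 fold change of the 29 was 1.97.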

How the data were processed

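RNA of the right hemisphere was sequenced from GL261-bearing mice treated with vehicle (n = 3) or UMBO (n = 2), and groups were taken from the sample titles. The study's methods include more mice than these 5 libraries, and further UMBO mice were not analysed here. Per the study's methods, the authors used STAR 2.7.2a and the GRCm38 genome, and the deposited values are raw read counts for each Ensembl gene, not normalized. The annotation release and strand setting are not given in the sources used here. Nothing says that libraries share a litter or day, and p-values measure the spread between these mice.

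Symbols were found for 55394 of 55573 genes (GENCODE M21, GRCm38), which also gave positions and exon lengths. Counts were filtered with filterByExpr, scaled by TMM and tested in edgeR 4.0.16 under R 4.3.3 by its quasi-likelihood method, with treatment as the only term, over 23592 genes with Benjamini-Hochberg adjustment at 0.05. The study used DESeq2, and the Wald test of DESeq2 1.42.0 was run as an alternative. On simulated counts for 23592 genes, edgeR called 131 of 200 genes changed 4-fold and 8 unchanged genes. Every simulated gene had the common dispersion of these libraries (0.118), and libraries were drawn independently. A library that stands apart, as UMBO replicate 2 did, was not simulated, so these counts do not give the recovery for the members. CPM per kb divides by the union of annotated exons.

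The members and lists were chosen with earlier results of these data known, so no p over a list is given. All members are accounted for by role. Per-library values are given in each role for the 2 members with the smallest p and the 1 nearest 0, and for any member with UMBO replicate 1 at or below the vehicle median; Birc5, Cdk1, Ube2c and others appear by fold change. Other lists give the 2 smallest p and the lowest fold change. Alternatives covered normalization, filters, DESeq2, each library left out and the replicate number as a block.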

Additional observations from a re-analysis of the deposited data

How the results depend on the processing

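Genes called after adjustment numbered 0 with DESeq2 size factors, library size only and both other filters, 42 with the DESeq2 Wald test and 2337 with the replicate block, under which 35 of the 40 members were called (background 6.05%) and their median log2 fold change was 1.53. The replicate numbers do not establish pairs: nothing ties them to a litter or day, and only 2 are shared, with correlations of deviations of 0.453 and 0.76, where the deviations of the UMBO libraries are opposite by construction. Without TMM factors the median of all genes moved from 0.01 to 0.13 and that of the members to 2.13. Across the 5 fits that each left out 1 library, the genes called ranged from 0 to 4543, the members at an unadjusted p under 0.05 from 3 (without UMBO replicate 2) to 39 (without UMBO replicate 1), the members with no overlap from 22 to 39, and the members' median log2 fold change from 0.73 to 2.63. With 1 UMBO library its spread is assumed to be that of the vehicle libraries. No overlap then means only that this library lay above every vehicle library, which is easier to meet than with both UMBO libraries. UMBO replicate 2 was the highest of all 5 libraries in 40.4% of all genes. The share of all genes with no overlap was not counted in these fits, so their counts of members cannot be compared with that from all 5 libraries. The sign turned for Anln with no filter on low counts (-0.00019), and with a library left out for Anln (range -0.045 to 0.13), Incenp (-0.0051 to 1.10), Pttg1 (-0.13 to 1.23) and Ccne1 (-0.074 to 0.36). The cause of these changes was not tested. The lowest count of a member in any library was 52, and the UMBO mice differed 3.50-fold in the median member.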
